A study of Mus musculus with 4 samples.

Results

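The interleukin-1 and interleukin-18 system was followed through the white blood cells of mice with acute pancreatitis. Its members were taken by name from the gene list of the deposited matrices, and 8 of 9 named genes were present among 16152 listed genes: the cytokines Il1b and Il18, the inhibitors Il1rn, Il1r2 and Il18bp, the receptor chain Il1rap, and the inflammasome parts Nlrp3 and Casp1. The name Il1a was not in the gene list and was not analysed here. Mononuclear cells of peripheral blood, separated on Ficoll, were sequenced cell by cell from the 5′ end of their RNA, on the 10x droplet platform, in 4 libraries. The pancreatitis libraries were taken 12 h, 24 h and 96 h after the start of cerulein, and the control library at 0 h. All came from wild-type C57BL/6J mice of 6 to 8 weeks. Cerulein, a cholecystokinin analogue that overstimulates pancreatic acinar cells, was injected 7 times into the peritoneum, at 60 mg/kg as the series' design text gives it. That text gives the last time as 168 h, where the library's own label says 96 h. Each time had 1 library, the number of animals behind it is not given, and what the control mice received, if anything, is not stated.

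Interleukin-1 beta is made as an inactive precursor, mostly by monocytes, macrophages and neutrophils, and is cut by caspase-1 once an inflammasome such as NLRP3 has formed. Its action is held back by a soluble antagonist, IL-1RN, which occupies the signalling receptor, and by IL-1R2, a decoy that binds the cytokine without signalling. Interleukin-18 is cut by the same protease, is bound in plasma by IL-18BP, and acts above all on NK and T cells, where it drives interferon gamma.

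With 1 library per time there is no spread between animals, so no test was made. A level is given in CPM, the UMIs (unique molecular identifiers, each standing for 1 captured RNA molecule) of a gene per 1000000 UMIs of a class of cells in 1 library. Levels have exact Poisson intervals, shares of cells exact binomial (Clopper-Pearson) intervals and ratios exact conditional binomial intervals, all at 95%, and these cover counting error only. A member counted as measured in a comparison if one of the libraries reached 50 CPM and the pair had 20 UMIs or more in all. It was called higher at a ratio of 2 or more and lower at 0.5 or less.

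The 4 libraries held 11663 to 14569 cells before filtering, and 10464 to 12929 cells were kept. Marker genes put 92.2% to 95.1% of them into 7 classes. Nonclassical monocyte-like cells numbered 2824 at 0 h, 1946 at 12 h, 2224 at 24 h and 1032 at 96 h. Classical monocyte-like cells numbered 497, 858, 1645 and 718 in the same order, and neutrophil-like cells 19, 78, 151 and 14. Ficoll separation is meant to leave neutrophils behind, and the neutrophil gate was small. Its control and 96 h levels rest on under 50 cells. Why neutrophil-like cells were present was not tested. Many gene names follow rat usage, with 28 names of the rat RT1- type for histocompatibility genes and 0 of the mouse H2- type, although the labels say mouse and the submitters' processing notes name mm10. The barcode lists of the 12 h and 24 h libraries were the same 11663 barcodes, for 12588 matrix columns at 24 h, and the control list held 4340 barcodes for 14569 columns. Cells were therefore taken from the matrix columns, and barcodes were not used.

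Il1b, Il1rn and Nlrp3 had the most similar level patterns among the members. Over 26 sums of a class in a library, Pearson's r of log2(CPM + 10) was 0.970 for Il1b with Il1rn, 0.946 for Il1b with Nlrp3 and 0.958 for Il1rn with Nlrp3. These sums share libraries, depth and the contrast of myeloid with lymphoid cells, so the values are descriptions. The mouse sequence of the 250 bases before an annotated start of each gene is shown for that reason (RefSeq, GRCm38.p6, 5′ to 3′ on the gene's strand), with short motifs in capitals. A TATA box is in capitals in Il1b, an AP-1 site in Il1rn, and a match to the NF-kB consensus in Nlrp3.
Il1b, chr2:129371140-129371389, minus strand: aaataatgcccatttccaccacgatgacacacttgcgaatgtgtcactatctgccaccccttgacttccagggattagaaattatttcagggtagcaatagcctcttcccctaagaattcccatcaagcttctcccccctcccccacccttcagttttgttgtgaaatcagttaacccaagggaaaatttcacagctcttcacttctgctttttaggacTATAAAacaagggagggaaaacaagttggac
Il1rn, chr2:24336610-24336859, plus strand: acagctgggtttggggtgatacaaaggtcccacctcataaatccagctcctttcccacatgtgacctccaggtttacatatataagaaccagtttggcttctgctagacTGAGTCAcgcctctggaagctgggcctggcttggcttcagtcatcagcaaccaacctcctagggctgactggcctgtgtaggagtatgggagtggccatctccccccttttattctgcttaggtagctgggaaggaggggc
Nlrp3, chr11:59541319-59541568, plus strand: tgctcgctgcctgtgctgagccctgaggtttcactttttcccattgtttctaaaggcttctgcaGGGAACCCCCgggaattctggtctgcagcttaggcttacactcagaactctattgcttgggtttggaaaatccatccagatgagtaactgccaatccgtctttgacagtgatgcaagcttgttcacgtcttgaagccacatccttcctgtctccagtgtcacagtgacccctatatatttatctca
The TATA box (TATAAA) of Il1b begins at -31, where -1 is the last base before the annotated start. TATAAA was in 12.4% of all 32851 mouse windows of this kind, searched on both strands. The AP-1 site (TGANTCA) of Il1rn begins at -141, and 6.75% of windows held one. The NF-kB match of Nlrp3 begins at -186, and 3.90% of windows held one. Il1rn has 3 such windows and Nlrp3 has 2, and the motif shown was in 1 of them for each gene. The C/EBP site TTGCNNAA (9.56% of windows) and the PU.1 core GAGGAA (23.3%) were also searched. C/EBP was in none of these 3 windows, and PU.1 was in none of them either but was found 3 times in the other Nlrp3 window. A match describes letters in this window and says nothing of whether a factor was bound.

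Among the members measured in monocytes at 24 h, Il1b had the largest ratio to control. In classical monocyte-like cells, the Ly6C-high type that leaves blood for inflamed tissue, Il1b stood at 111 CPM in the control, 93.8 CPM at 12 h, 639 CPM at 24 h and 109 CPM at 96 h. The 24 h library stood apart from the other 3, which lay close together. The ratio to control was 5.77 at 24 h (5.23 to 6.39) and 0.989 at 96 h (0.874 to 1.12). It was 0.847 at 12 h (0.753 to 0.955), but 1.37 (1.22 to 1.55) when cells rich in calprotectin, described below, were left out.

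Nonclassical monocytes survey the endothelium, and the cells of that gate carried 204 CPM of Il1b in the control, 118 CPM at 12 h, 280.3 CPM at 24 h and 197 CPM at 96 h. Here the 12 h library was the low one, at a ratio of 0.582 (0.539 to 0.628), and the 24 h library was the high one, at 1.38 (1.30 to 1.46). In cells between the classical and nonclassical gates Il1b stood at 181, 158, 339 and 275 CPM in the order of time. Nonclassical cells had the highest Il1b level of the 3 monocyte classes in the control, though not beyond counting error over the intermediate class. At 24 h the classical cells exceeded the nonclassical ones, at 639 against 280.3 CPM.

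Neutrophil-like cells reached 722 CPM of Il1b at 24 h (650.1 to 799), against 226 CPM at 12 h (172 to 292). Their ratio was 3.19 (2.41 to 4.28), from 371 and 58 UMIs, or 2.20 as a mean over cells. The 19 neutrophil-like cells of the control gave 1144 CPM (817 to 1558) from 40 UMIs, and the 14 cells of 96 h gave 224 CPM (126 to 370) from 15 UMIs. These are listed without a ratio.

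Lymphocytes had low Il1b levels, and these too were highest at 24 h. B-like cells, which are not a main source of Il1b in blood, held 6.94 CPM in the control, 11.1 CPM at 12 h, 19.5 CPM at 24 h and 2.90 CPM at 96 h. T-like cells held 2.38 to 9.47 CPM and NK-like cells 1.97 to 13.6 CPM, each highest at 24 h. Free RNA in the droplets can give such UMIs in cells that do not make a gene. These lymphocyte values were read as background, which was not tested. With the B-like level of the same library subtracted, the 24 h ratio of Il1b in classical monocyte-like cells was 5.97.

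**Figure D1:**
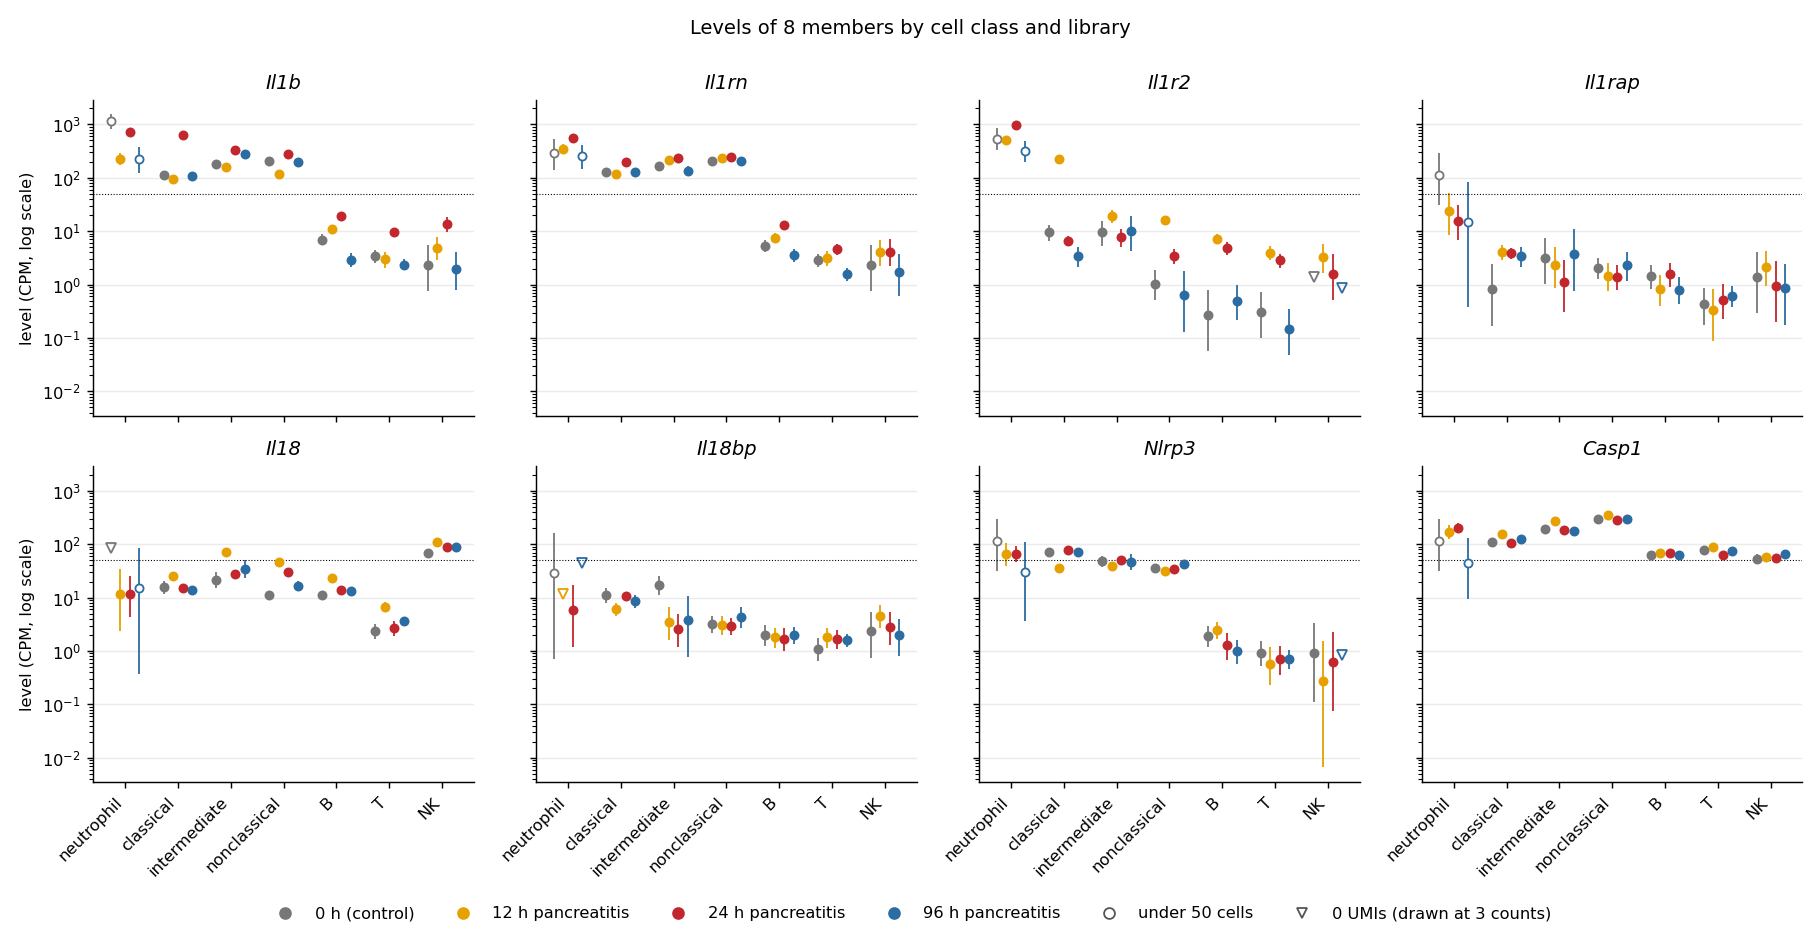
Level in CPM (log axis) of 8 members in 7 marker-gated classes, with 1 point per library in order of time and bars for the exact 95% Poisson interval. Open circles are classes under 50 cells, triangles mark 0 UMIs and stand at 3 counts, and the dotted line is 50 CPM. Il1b, Il1rn and Nlrp3 sit higher in myeloid classes than in B, T and NK cells, Il18 is highest among NK cells, and Casp1 is above 50 CPM in nearly every class.

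The larger Il1b level at 24 h came with more cells that held it. After every cell was thinned to 1000 UMIs, so that depth was equal, 33.2% of classical monocyte-like cells had an Il1b UMI at 24 h (545 of 1642), against 8.07% (40 of 496) in the control. At 12 h the share was 9.56%, and at 96 h it was 7.94%. In nonclassical monocyte-like cells the shares were 14.3% in the control, 8.84% at 12 h, 19.7% at 24 h and 15.2% at 96 h. B-like cells set the background at 0.633%, 0.321%, 1.82% and 0.258%. Without thinning the classical shares were 69.5% at 24 h and 33.8% in the control, at median depths of 11241 and 7236 UMIs.

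The class that held the most Il1b UMIs was not the same in all libraries. Nonclassical monocyte-like cells held 65.4% of the library's Il1b UMIs in the control, 32.7% at 12 h, 17.4% at 24 h and 40.9% at 96 h. Classical monocyte-like cells held 12.3%, 29.9%, 64.6% and 30.9%. The neutrophil-like gate never held more than 2.02%. Cells outside the gates held between 7.33% (24 h library) and 15.15% (12 h library) of Il1b UMIs. Calprotectin-rich cells of the classical gate, described below, count here as classical. How many cells of these kinds were neutrophils was not tested, so 2.02% describes the gate and not all neutrophils. Classical monocyte-like cells were also 15.1% of kept cells at 24 h and 4.36% in the control, so both the number of cells and the level per UMI of the class were higher at 24 h.

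**Figure D2:**
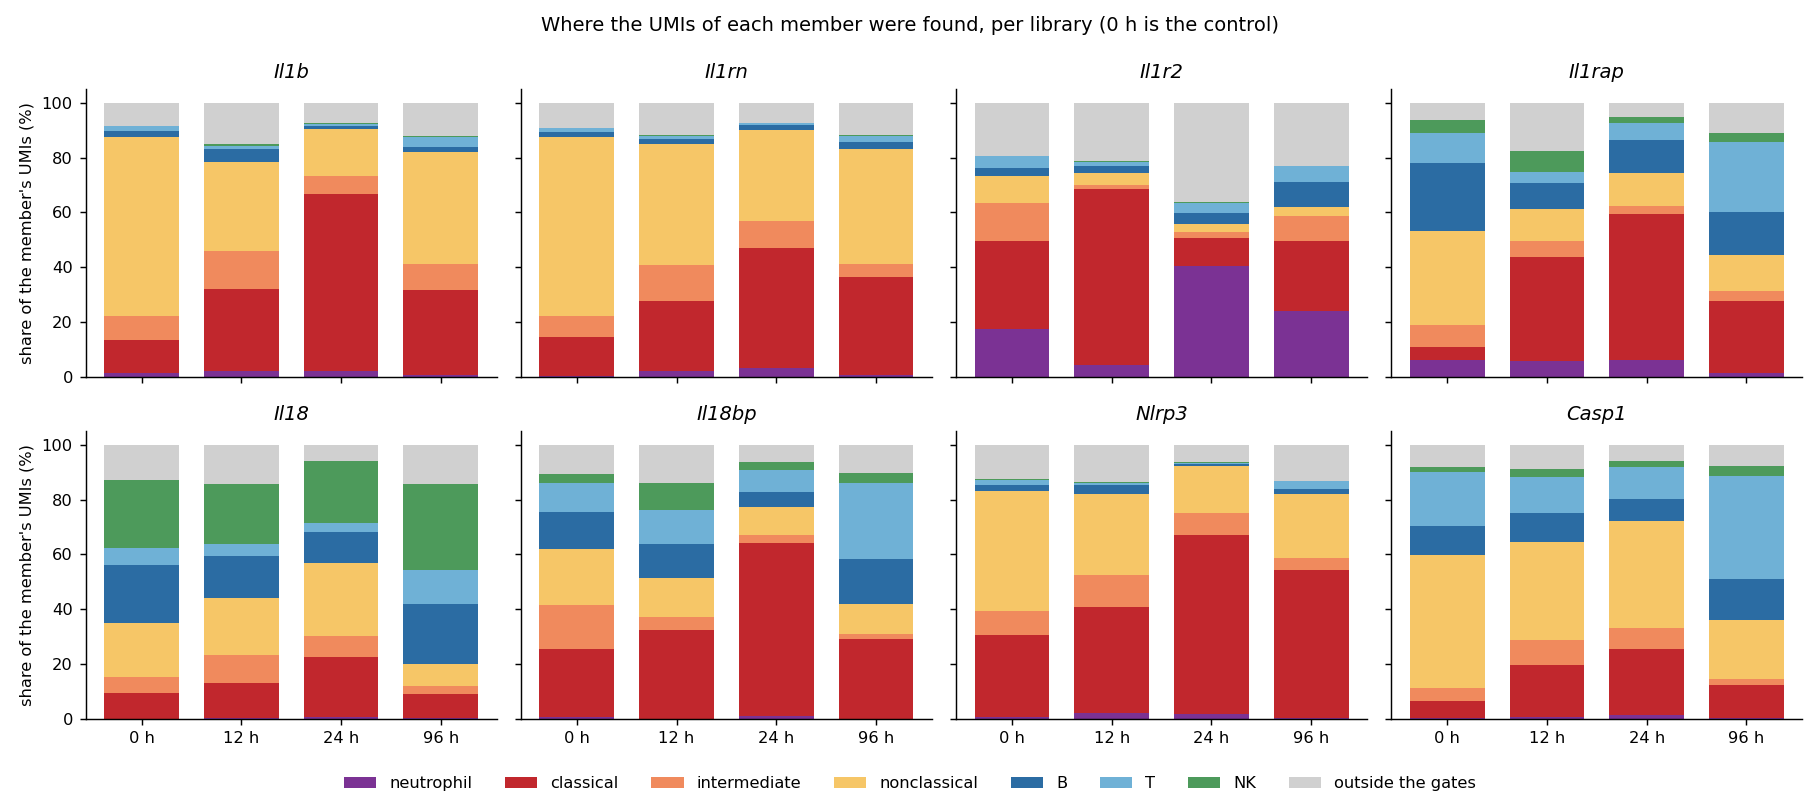
Share of each member's UMIs (percent) found in each class, 1 bar per library, with the cells outside the gates in grey. Il1b UMIs lie mostly in nonclassical cells in the control (65.4%) and in classical cells at 24 h (64.6%), while Il1r2 UMIs lie mostly in classical cells at 12 h (64.5%), and at 24 h are split between neutrophil-like cells (40.5%) and cells outside the gates (36.2%).

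Il1rn, which encodes the antagonist, changed less than Il1b. Classical monocyte-like cells held 131 CPM in the control, 117 CPM at 12 h, a level with an interval of 193.6 to 206.6 CPM at 24 h, and 128 CPM at 96 h, with a 24 h ratio of 1.53 (1.39 to 1.69). Nonclassical monocyte-like cells held 209, 233, 249 and 205 CPM, so all 4 libraries lay within a narrow range. Neutrophil-like cells held 550.5 CPM at 24 h and 347 CPM at 12 h, a ratio of 1.59 (1.25 to 2.04). By share of thinned cells, Il1rn was found in 19.0% of the classical gate at 24 h and 12.5% in the control, and in 1.28% and 0.633% of the B population.

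The balance of antagonist to cytokine therefore differed between libraries. Classical monocyte-like cells had 1.18 Il1rn UMIs per Il1b UMI in the control (1.03 to 1.35), 1.25 at 12 h (1.14 to 1.36), 0.313 at 24 h (0.302 to 0.325) and 1.17 at 96 h (1.06 to 1.30). Nonclassical monocyte-like cells had 1.03, 1.97, 0.888 and 1.04. Capture can differ between the genes, so only the change of this ratio between libraries is read. Intermediate monocyte-like cells had 0.923 in the control, 1.38 at 12 h, 0.692 at 24 h (0.632 to 0.756) and 0.493 at 96 h (0.388 to 0.623). The balance was lowest at 24 h in the classical and nonclassical classes, but at 96 h in the intermediate class. Within classical monocyte-like cells at 24 h, 23.5% of thinned cells with an Il1b UMI also had one of Il1rn, beside 19.0% of all cells, so both RNAs occurred in the same cells.

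Il1r2, the decoy receptor, was highest in neutrophil-like cells and, at 12 h, was also found in part of the classical monocyte gate. Neutrophil-like cells held 971 CPM at 24 h (887 to 1060) and 519 CPM at 12 h (434 to 615), a ratio of 1.87 (1.54 to 2.28). The few control and 96 h neutrophil-like cells held 543 CPM (327 to 849) and 314 CPM (194 to 480). By share of thinned cells, Il1r2 was found in 63.8% of neutrophil-like cells at 24 h and 47.4% at 12 h.

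In classical monocyte-like cells Il1r2 stood at 9.52 CPM in the control, 221 CPM at 12 h, 6.68 CPM at 24 h and 3.38 CPM at 96 h. The 12 h library alone was high, with a ratio to control of 23.2 (16.6 to 33.4), and 9.21% of its thinned classical cells had a UMI against 0.202% in the control. The ratio was 0.702 at 24 h (0.479 to 1.05) and 0.355 at 96 h (0.199 to 0.623), from 124 and 22 UMIs. B-like cells held 4.85 CPM of Il1r2 at 24 h and 0.274 CPM in the control, and with the B-like level subtracted the 24 h ratio was 0.198. Nonclassical monocyte-like cells had 16.0 CPM at 12 h and 1.03 CPM in the control, and B-like cells 7.07 CPM at 12 h, all under the level set for a call.

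Markers of neutrophils were, like Il1r2, highest at 12 h in the classical monocyte gate. They were above the control at 24 h and 96 h too, where the Il1r2 ratio was 0.702 (0.479 to 1.05) and 0.355 (0.199 to 0.623). The summed level of 13 neutrophil markers in that gate was 579 CPM in the control, 28900 CPM at 12 h, 3315 CPM at 24 h and 1124 CPM at 96 h, and in the neutrophil gate it was 205600 CPM at 12 h. Of these 13 genes, 7 had UMIs in the classical gate in the control and 12 in each pancreatitis library, and Ltf was at 0 in all 4. In B-like cells the same sum was 20.4, 1026, 789 and 63.9 CPM. These sums include S100a8 and S100a9, and the part of neutrophil RNA in the Il1r2 level was not tested by them.

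The 12 h classical gate held 282 cells with at least 2% of their UMIs from S100a8 and S100a9 (calprotectin, the main cytosolic protein of neutrophils, also made by young monocytes), against 1 such cell in the control, 49 at 24 h and 2 at 96 h. At 12 h these 282 cells held 392 CPM of Il1r2, and the other 576 cells 79.8 CPM. In the 282 cells Fn1 (fibronectin) stood at 2693 against 2393 CPM and Vcan (versican) at 1175 against 838.5 CPM. Both genes help define the classical gate, so their levels there do not tell whether these cells are monocytes. Csf1r, the receptor for the monocyte growth factor, was at 191 against 546 CPM, Mmp8, a neutrophil collagenase, at 58.6 against 6.17 CPM, and the proliferation gene Mki67 at 45.9 against 36.0 CPM. The 496 control cells below that share of calprotectin had 4.36 CPM of Mki67. The calprotectin-rich cells of 12 h were also deeper, with a median of 14953 UMIs against 6483 UMIs.

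Without the calprotectin-rich cells, Il1r2 was still higher at 12 h than in the control, at a ratio of 8.37 (5.92 to 12.2). The same split set Il1b at 22.5 CPM in the calprotectin-rich cells and 152 CPM in the rest, Il1rn at 81.3 and 146 CPM, and Nlrp3 at 26.9 and 44.1 CPM. The calprotectin-rich cells were thus high in the decoy receptor and low in the cytokine. At 24 h the 49 such cells held 403 CPM of Il1b and the other 1596 cells 646 CPM, and the 24 h ratio of Il1b without them was 5.83 (5.28 to 6.45).

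**Figure D3:**
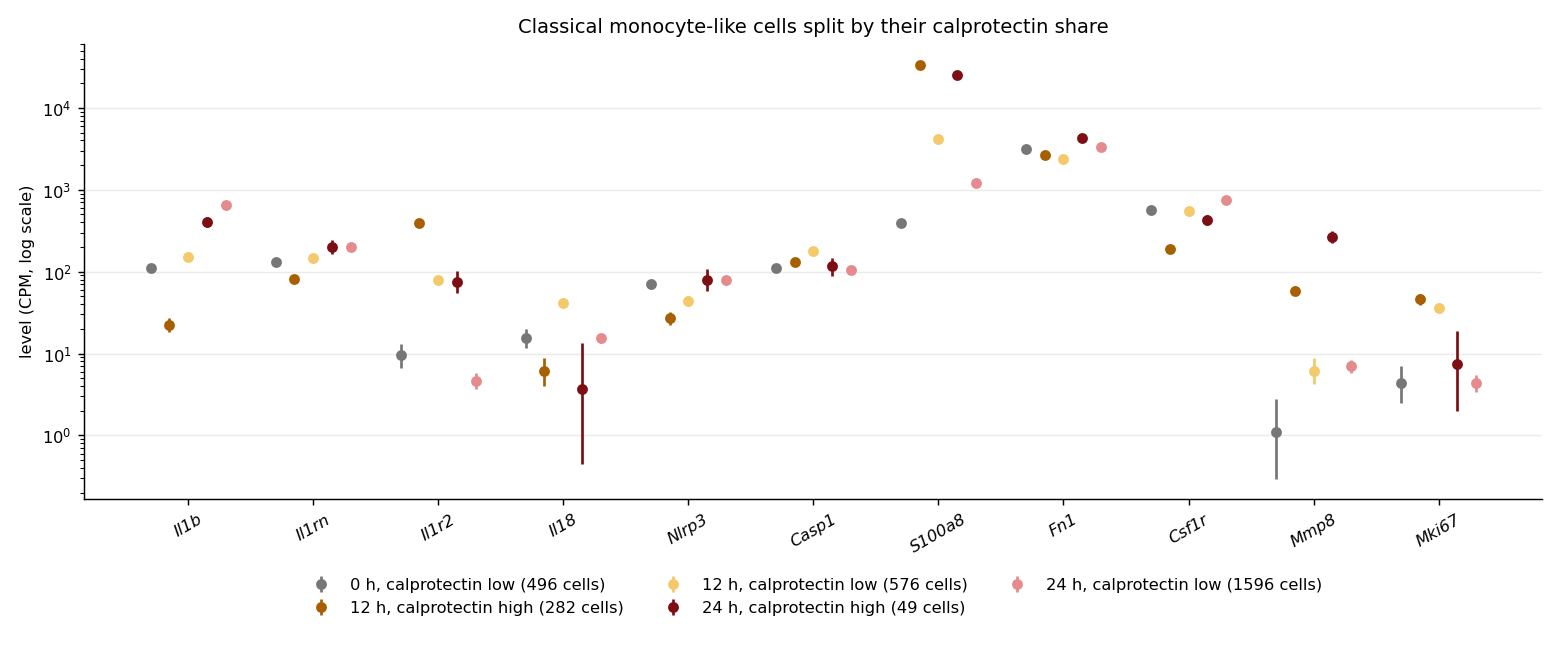
Level in CPM (log axis, bars are 95% Poisson intervals) of 6 members and 5 marker genes in classical monocyte-like cells, split by whether calprotectin gave at least 2% of a cell's UMIs, at 0 h, 12 h and 24 h. At 12 h Il1r2 is higher (392 against 79.8 CPM) and Il1b lower (22.5 against 152 CPM) in the calprotectin-rich cells.

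Il1rap, the shared signalling partner of the interleukin-1 receptor, was near the limit of these data. It held 0.816 to 4.12 CPM in classical and 1.41 to 2.30 CPM in nonclassical monocyte-like cells, and 0.329 to 2.17 CPM in lymphocytes. Neutrophil-like cells held 23.4 CPM at 12 h and 15.6 CPM at 24 h, from 6 and 8 UMIs. In classical cells it had 3 UMIs in the control and 39 at 12 h, a ratio of 5.05 with an interval of 1.61 to 25.6. No call could be made for it in any class.

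Il18 had another distribution from Il1b, with the highest level in NK cells. NK-like cells held 69.0 CPM in the control (58.3 to 81.0), 112 CPM at 12 h (101 to 123), 90.3 CPM at 24 h (80.1 to 101) and 87.4 CPM at 96 h (77.9 to 97.7). The control was the lowest of the 4 libraries, and the ratios to it were 1.62 (1.34 to 1.97), 1.31 (1.07 to 1.61) and 1.27 (1.04 to 1.55). NK-like cells ranked first for Il18 in all 4 libraries, beyond counting error over the next class. Over the 26 sums, the r of Il18 was -0.035 with Il1b and 0.003 with Casp1.

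In nonclassical monocyte-like cells Il18 stood at 11.2 CPM in the control, 47.4 CPM at 12 h, 29.98 CPM at 24 h and 16.7 CPM at 96 h, with ratios of 4.24 (3.45 to 5.26), 2.68 (2.17 to 3.34) and 1.499 (1.12 to 2.01). All 4 levels were under the 50 CPM asked for a call. Intermediate monocyte-like cells held 21.6, 73.0, 27.3 and 34.9 CPM, with a 12 h ratio of 3.39 (2.34 to 5.03), and classical ones 15.5, 25.6, 15.0 and 13.7 CPM. B-like cells also held more at 12 h, at 23.7 CPM against 11.4 CPM in the control, a ratio of 2.07 (1.68 to 2.58), as did T-like cells at 6.66 against 2.39 CPM. The 12 h library was thus the highest of the 4 in all 6 monocyte and lymphocyte classes. With the B-like level subtracted no Il18 ratio could be given for nonclassical cells, because their control level lay below that of B-like cells, and in classical cells the 12 h ratio turned to 0.470 from 1.65 with none subtracted. The share of thinned NK-like cells with an Il18 UMI was 5.90% in the control, 10.6% at 12 h, 10.4% at 24 h and 8.36% at 96 h, beside 0.633%, 1.52%, 1.11% and 0.867% of B-like cells.

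Il18bp, the soluble inhibitor, was low throughout, at 6.03 to 11.2 CPM in classical and 2.90 to 4.39 CPM in nonclassical monocyte-like cells. Classical cells held 6.03 CPM at 12 h and 11.2 CPM in the control, a ratio of 0.541 (0.356 to 0.828) from 57 and 41 UMIs. Per Il18 UMI they held 0.236 Il18bp UMIs at 12 h (0.173 to 0.316) and 0.719 in the control (0.469 to 1.09). In nonclassical cells the ratio of UMIs was 0.0644 at 12 h (0.0412 to 0.0966) and 0.286 in the control (0.189 to 0.421), from 25 and 34 Il18bp UMIs. For Il18 itself, classical cells held 25.6 CPM at 12 h and 15.5 CPM in the control, and nonclassical cells 47.4 and 11.2 CPM. B-like cells held 23.7 and 11.4 CPM of Il18, and that level was not subtracted from these ratios. Intermediate cells held 17.1 CPM of Il18bp in the control and 2.56 to 3.74 CPM in the pancreatitis libraries, the control value resting on 27 UMIs.

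Receptor chains of interleukin-18 were found in NK-like and T-like cells, among others. Il18rap, its accessory chain, stood at 123 CPM in NK-like cells of the control, 199 CPM at 12 h, 154 CPM at 24 h and 135 CPM at 96 h, against 1.01 to 3.37 CPM in B-like cells. Il18r1, the binding chain, held 45.6 to 65.1 CPM in NK-like and 12.3 to 31.2 CPM in T-like cells, with the 12 h library highest in both. Ifng, the main output of interleukin-18 in these cells, held at most 3.73 CPM in NK-like and 0.658 CPM in T-like cells. In neutrophil-like cells Il18rap was also measured, with a ratio of 0.551 at 24 h against 12 h. Il1r1, the signalling receptor of interleukin-1, was found at 23.4 CPM at 12 h and 29.2 CPM at 24 h in neutrophil-like cells. In classical monocyte-like cells Il1r1 had 0 UMIs in the control and 5.29 CPM or less in each pancreatitis library.

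Nlrp3, the sensor that nucleates the inflammasome, was a gene of monocytes and neutrophils here. Classical monocyte-like cells held 70.4 CPM in the control (62.1 to 79.5), 36.4 CPM at 12 h (32.6 to 40.4), 78.6 CPM at 24 h (74.7 to 82.8) and 71.6 CPM at 96 h (65.2 to 78.4). The 12 h library was low, at a ratio of 0.516 (0.438 to 0.609), and the other pancreatitis libraries lay close to the control, at 1.12 and 1.02. Without the calprotectin-rich cells the 12 h ratio was 0.625 (0.521 to 0.7498), and with the B-like level subtracted it was 0.495, which passes 2-fold. Nonclassical monocyte-like cells held 32.0 to 42.5 CPM in the 4 libraries. Neutrophil-like cells held 66.1 CPM at 24 h and 66.3 CPM at 12 h, and lymphocytes 2.47 CPM or less.

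Casp1, the protease that matures both cytokines, was found in every class. Nonclassical monocyte-like cells held 294 CPM in the control, 348 CPM at 12 h, 280.2 CPM at 24 h and 302 CPM at 96 h, the highest class in each library. Classical monocyte-like cells held 109.8, 158, 106 and 125 CPM, with a 12 h ratio of 1.44 (1.29 to 1.61). B-like, T-like and NK-like cells held 54.1 to 86.9 CPM. In every monocyte and lymphocyte class the 12 h level was above the control, by ratios of 1.05 to 1.46, and the interval included 1 in B-like and NK-like cells. Neutrophil-like cells held 204 CPM at 24 h and 172 CPM at 12 h, a ratio of 1.19 (0.830 to 1.73).

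**Figure D4:**
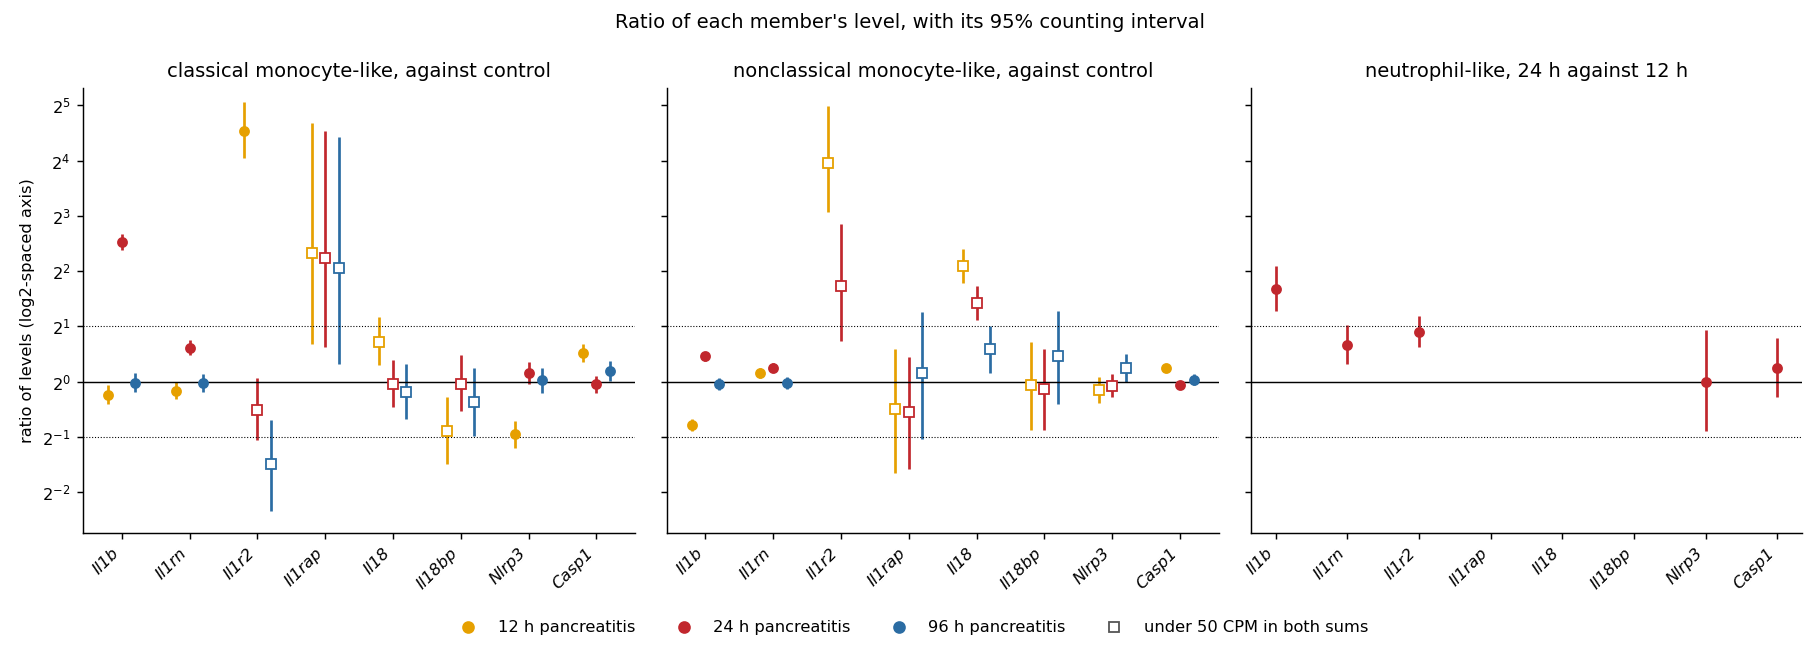
Ratio of each member's level to the control library in classical and nonclassical monocyte-like cells, and at 24 h to 12 h in neutrophil-like cells, on an axis spaced by powers of 2 with 95% counting intervals. Filled points are measured members, open squares had under 50 CPM in both sums, and dotted lines mark 2-fold. Only Il1r2 at 12 h and Il1b at 24 h in classical cells and Il1b in neutrophil-like cells pass 2-fold as measured members.

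Counted by the 2-fold rule, at most 1 member passed in each comparison of the 6 classes counted, which leave out the intermediate class. In classical monocyte-like cells at 12 h, 1 of 5 measured members was higher (Il1r2) and 0 were lower, where 12.1% of the 2539 genes measured there passed 2-fold. At 24 h, 1 of 4 was higher (Il1b) and 0 were lower, beside 5.13% of all measured genes. At 96 h, 0 of 4 passed, beside 0.757%. The members' median log2 ratio was -0.16, 0.39 and 0.00 at these times, and that of all measured genes 0.07, -0.01 and 0.07.

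In nonclassical monocyte-like cells 0 of 3 measured members passed 2-fold at each time, where 1.75% of genes passed at 12 h, 1.99% at 24 h and 0.375% at 96 h. In B-like cells 0 of 1 passed at each time, beside 0.635%, 0.731% and 0.202% of genes. T-like cells gave 0 of 1 as well, beside 1.75%, 1.08% and 0.204%, and NK-like cells 0 of 2, beside 0.972%, 0.938% and 0.565%. Neutrophil-like cells at 24 h against 12 h had 1 of 5 measured members higher (Il1b) and 0 lower, beside 9.36% of the 2488 genes measured. A share of 0 or 1 member among so few is not set apart from these backgrounds.

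**Figure D5:**
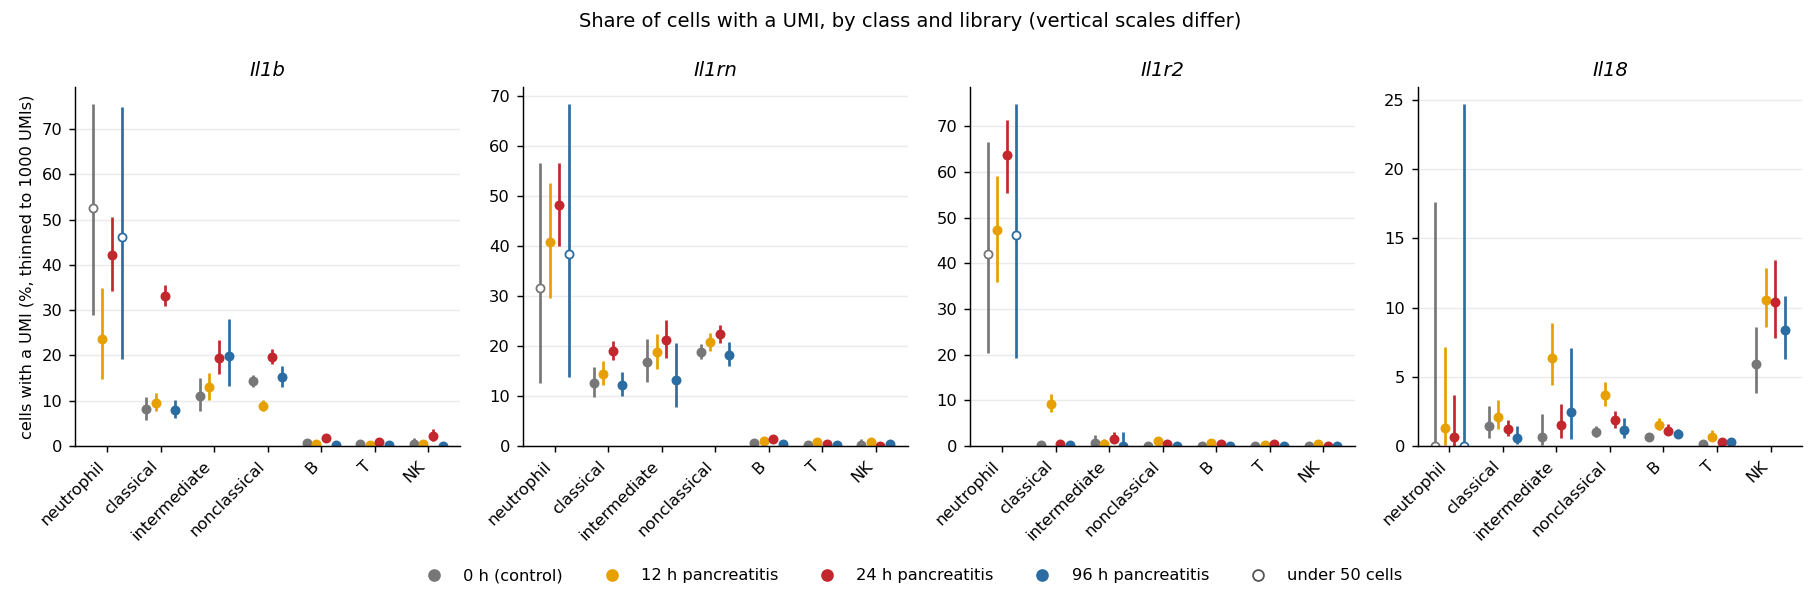
Share of cells (percent) with at least 1 UMI of 4 members after each cell was thinned to 1000 UMIs, by class and library, with exact 95% binomial intervals and open circles for classes under 50 cells. Il1b reaches 33.2% of classical cells at 24 h, against 8.07% in the control, and Il18 is most often found in NK-like cells.

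Of 43 other genes of the pathway, 35 were in the gene list. In classical monocyte-like cells at 12 h, 6 were measured, 0 were higher and 2 were lower. Those were Ninj1, which ruptures the membrane of dying cells, at 309.5 against 826 CPM (ratio 0.375), and Txnip, a redox protein reported to bind NLRP3, at 175 against 363 CPM (ratio 0.483). The highest ratio was that of Myd88, an adaptor of the interleukin-1 receptor family, at 1.19. At 24 h, 9 were measured, and only Irak3, a brake on interleukin-1 receptor and Toll-like receptor signalling, was higher, at 62.8 against 23.9 CPM, a ratio of 2.63 (2.11 to 3.30). Txnip had the lowest ratio at 24 h, 0.519. At 96 h, 0 of 6 passed, with ratios between 0.843 for Ninj1 and 1.19 for Pycard, the adaptor that links NLRP3 to caspase-1.

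In nonclassical monocyte-like cells 0 of 9 pathway genes passed at each time. Their ratios lay between 0.691 (Txnip) and 1.30 (Mefv, the pyrin sensor) at 12 h, 0.667 (Txnip) and 1.21 (Irak3) at 24 h, and 0.923 (Ninj1) and 1.12 (Myd88) at 96 h. B-like cells had 0 of 5 past 2-fold at each time, with ratios between 0.801 (Irak2) and 1.03 (Pycard), 0.840 (Irak2) and 1.29 (Txnip), and 0.959 (Irak3) and 1.09 (Txnip). T-like cells at 12 h had 1 of 4 lower, Txnip, at 993 against 2074 CPM, with Pycard highest at a ratio of 1.57. At 24 h they had 0 of 4, between Txnip (0.719) and Tab2 (1.08), and at 96 h 0 of 3, between Nlrp1a (0.937) and Txnip (1.03). NK-like cells had 0 of 8 at 12 h, between Irak2 (1.01) and Nlrp1a (1.63), 0 of 7 at 24 h, between Irak2 (0.890) and Myd88 (1.69), and 0 of 8 at 96 h, between Nlrp1a (1.01) and Tab2 (1.32). Neutrophil-like cells at 24 h against 12 h had 1 of 11 higher, Casp4, the protease that senses bacterial lipopolysaccharide, at 95.3 against 42.9 CPM from 49 and 11 UMIs, and Il18rap had the lowest ratio, 0.551. Pycard in classical monocyte-like cells was even, at 704 CPM in the control, 708 CPM at 12 h, 629 CPM at 24 h and 836 CPM at 96 h, and Gsdmd, the pore former of pyroptosis, held 21.6 to 28.3 CPM.

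By likeness over the 26 sums, searched among 4118 genes, Il1b was nearest to Slc2a6 (r = 0.978), Chi3l1 (0.976) and Sod2 (0.973). Il1r2 was nearest to Fetub (0.9796), Crispld2 (0.968) and Cxcr2 (0.957). Cxcr2, a neutrophil chemokine receptor, was itself a marker used by the neutrophil gate. Il1rn was nearest to Hlx (0.995), LOC680910 (0.993) and Nadk (0.992). Il18 had looser neighbours, Cyb5a (0.878), Itgad (0.866) and Bsg (0.864), and Casp1 had LOC100359687 (0.981), Krt75 (0.966) and Icam2 (0.964).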

How the data were processed

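The deposited files hold, per the file headers, 1 matrix of raw UMI counts per library. The submitters' processing notes name Cell Ranger, Seurat and the build mm10, without versions. No deposited cell had fewer than 301 genes or over 15.0% mitochondrial UMIs. A cell was kept from 200 genes up and with mitochondrial UMIs of 10% or less, and doublets marked by Scrublet (scanpy 1.11.5), 4.07% to 5.49% per library, were removed. Cells were gated by markers, with cells of a pair of lineages left out. T-like cells needed 3 markers with 2 Cd3 chains among them, B-like cells 2, and NK-like cells 4 with 1 Cd3 chain at most. Monocyte-like cells needed 3 of 5 markers and at least 0.3% of UMIs from Lyz2, and were split at a 2-fold balance of 4 classical (Fn1, Vcan, Ly6c, F13a1) against 5 nonclassical genes (Spn, Eno3, Fcgr3a, Cx3cr1, Cd36). Neutrophil-like cells needed at least 2% of UMIs from S100a8 and S100a9, 2 further markers, as many of these as of monocyte markers, and at least 2-fold more UMIs of those than of the 4 classical genes.

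The members, gene lists and markers were chosen with earlier results of these data known. Gate thresholds were set on markers after the data were seen, and the last neutrophil condition was added after member values were seen. No alternative left that condition out, so how far the neutrophil-like ratios depend on it was not tested. The intermediate monocyte class was also set after the data were seen and enters no count of calls. UMIs were summed per class and library and scaled to CPM, which makes levels relative to a class total. Classes of at least 50 cells were compared. Named were all members, measured receptors, Pycard, Casp4, Gsdmd, Irak3 and Ifng, the pathway genes with the highest and lowest ratio in each comparison, and the 3 genes most like each member, except for Nlrp3, whose likeness result is not reported here. The genes of the calprotectin split were chosen after their values were seen. Ratio intervals were tested on simulated counts. Software was python 3.11.15, numpy 2.4.6, scipy 1.17.1, pandas 2.3.3 and matplotlib 3.10.9. Alternatives covered cell filters, doublets, gates, scaling, averaging, B-cell subtraction and low-value filters.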

Additional observations from a re-analysis of the deposited data

Results flagged for a closer look

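The ratio of Il1b to control in classical monocyte-like cells pointed one way at 12 h (0.847) and the other at 24 h (5.77), each interval lying off 1. The 12 h ratio turned to 1.37 without the calprotectin-rich cells and to 1.34 as a mean over cells, so its direction is not settled. The difference between the times was not tested.

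Il1r2 in the same gate was above control at 12 h (23.2) and below it at 96 h (0.355). The 96 h value rests on 22 UMIs and the control on 35, the levels at both were under 10 CPM, and the difference was not tested.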

How the results depend on the processing

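No paired analysis was possible because each group has 1 library and the groups share no second replicate number.

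The number of members past 2-fold, over the 3 times together, was 2 in classical monocyte-like cells and 0 in the nonclassical, B-like, T-like and NK-like classes, and 1 in neutrophil-like cells at 24 h against 12 h. With no filter on low values it was 6, 4, 6, 5, 4 and 2 in that order. With one more marker asked of each class it was 1 in nonclassical cells (Il1b at 12 h, ratio 0.492) and 2 in neutrophil-like cells (Il1r2 joins, 2.12). With no cell filter it was also 2 in neutrophil-like cells (Il1r2, 2.03). With at most 5% mitochondrial UMIs it was 1 in nonclassical cells (Il1b at 12 h, 0.474), while classical, B-like, NK-like and neutrophil-like cells fell under 50 in a library compared and gave no value. The other alternatives stayed within 1.5 times the count.

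Of 106 member ratios, 106 stayed inside their counting interval with no cell filter, 104 with doublets kept, 104 with one more marker, 103 with median-of-ratios scaling and 98 as a mean over cells. With the B-like level subtracted 36 of 44 did. With at most 5% mitochondrial UMIs 44 ratios had a value, all of them in nonclassical monocyte-like or T-like cells. Only 11 of these 44 stayed inside, 23 moved by over 1.5 times and 19 lay on the other side of 1. None of the measured members past 2-fold changed direction in the alternatives that gave them a value. The 5% mitochondrial limit gave them none. Chosen after seeing the data, a 4-fold monocyte balance kept 43 of 47 and leaving out calprotectin-rich cells 41 of 47. Depth limits Il1rap, Il18bp, and neutrophil-like cells of the control and 96 h. Whether changes in 1 library come from pancreatitis or from that library's animals and preparation cannot be told apart.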
